A study of Mus musculus with 6 samples.

Results

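The calcium pumps and IP3 receptors are the proteins that move calcium ions out of the cytosol and let them back in from the endoplasmic reticulum (ER). The set was defined as 8 listed genes, the ER pumps Atp2a1, Atp2a2 and Atp2a3, the plasma membrane pumps Atp2b1 and Atp2b4, and the receptors Itpr1, Itpr2 and Itpr3. Every probe set whose single gene symbol was one of these was taken, which gave 20 of 45037 probe sets and 7 of the 8 genes, out of 18193 genes with a probe set of their own. Itpr1 was not analysed here. The genes were selected on the signals of the comparison below, so their values are a description and no p-value is given for them. The tissue was whole epididymal white fat of C57BL/6 mice aged 8 weeks, with 1 Affymetrix array per mouse and 3 mice per group. One group (WT) was labelled wild type, with no further allele given. The other (CNOT3KO) lacked CNOT3, a subunit of the CCR4-NOT complex that shortens mRNA poly(A) tails, in adipocytes, since the Cre recombinase was under the adiponectin promoter and the other cells of the pad keep the gene. No source says whether mice of a group shared a litter, so p-values measure the spread between these arrays.

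A cell at rest keeps free calcium in the cytosol very low. Sarco-endoplasmic reticulum pumps (SERCA, the Atp2a genes) load the ER with calcium, and plasma membrane pumps (PMCA, the Atp2b genes) push it out of the cell, both by splitting ATP. When a hormone activates a Gq-coupled receptor, phospholipase C makes inositol trisphosphate (IP3), and the IP3 receptors (the Itpr genes) open to release the stored calcium. In fat cells calcium bears on lipolysis, insulin-stimulated glucose uptake and, in beige cells, on heat made by calcium cycling through the ER pump.

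Among the genes measured, the plasma membrane pump Atp2b4 stood furthest from WT, at 13.7% of the WT mean signal. The IP3 receptor Itpr2 and the ER pump Atp2a2 were lower by several of their probe sets, but not by all. Itpr3 was lower by its only probe set, at 70.2% of the WT mean, Atp2b1 and Atp2a3 differed less, and the Atp2a1 signal lay below the filter on dim probe sets.

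Of the 20 probe sets, 17 had a mean signal above 51.6, the level under which probe sets were left out of the fit (the 40th percentile of all), and 3 lay below it. Differences are given as CNOT3KO minus WT of log2(signal + 22.5), where 22.5 is the 25th percentile of all values, and this offset makes differences of dim probe sets smaller. The standard error (SE) comes from limma fitted over all 22861 probe sets with 1 gene symbol above that level. In this fit 7 of the 17 were past a Benjamini-Hochberg adjusted p of 0.05, all lower, against a background of 17.2% of all tested probe sets called lower. The 7 belonged to Atp2a2, Itpr2 and Atp2b4 only, so several came from the same gene. The CNOT3KO arrays lay wholly below the WT arrays in 9 of the 17, against 24.4% of all tested probe sets. They lay wholly above them in 1, for which no such share is given here. Since the genes were listed from this comparison, nothing is read from these counts.

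**Figure D1:**
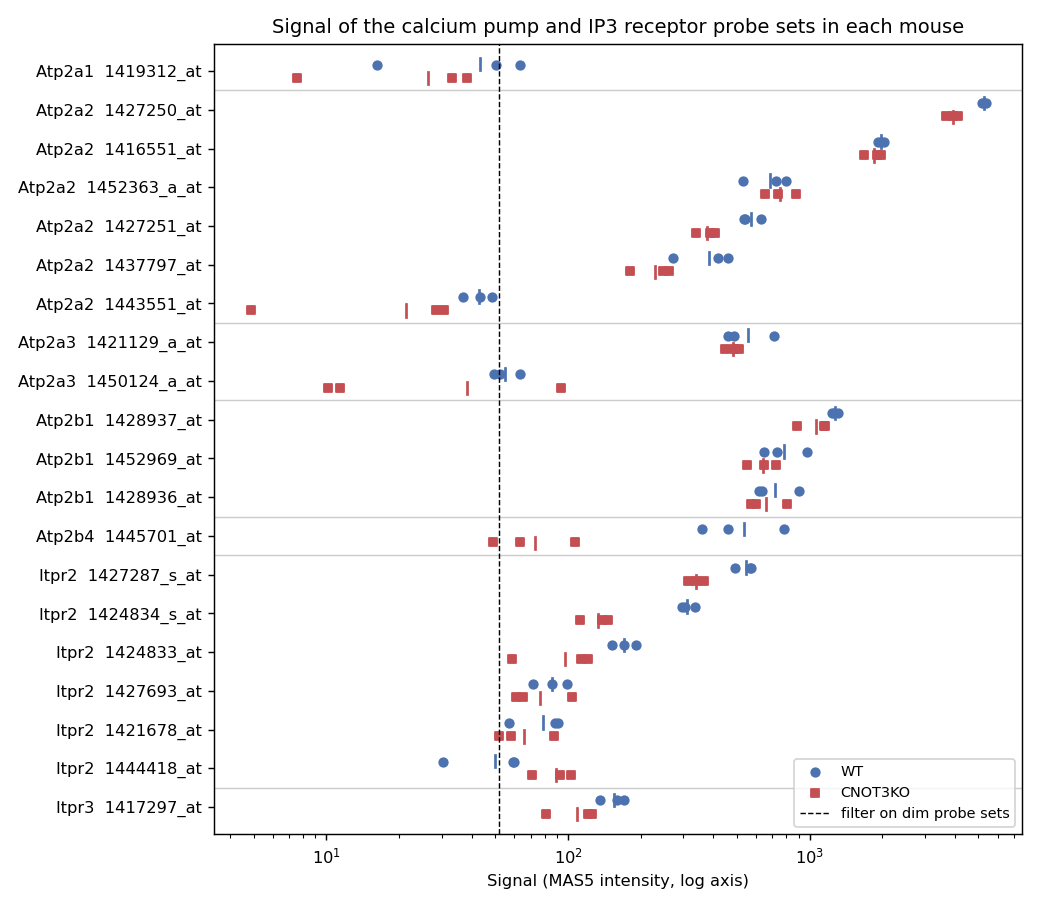
Signal of each calcium pump and IP3 receptor probe set (rows, named by gene and probe set) on a log axis of MAS5 intensity. Circles are the 3 WT mice, squares the 3 CNOT3KO mice, short vertical lines the group means, and the dashed line the filter at 51.6. The Atp2b4 groups lie far apart (360 or more against 106 or less), while the groups of Atp2a3 and of 2 of the 3 Atp2b1 probe sets overlap.

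The bases before the annotated starts are shown for 2 genes that read differently, Itpr2, which was lower by its 3 brightest probe sets, and Atp2a3, whose groups overlapped. They are RefSeq sequence of the build GRCm38.p6, 100 bases each, from chr6:146502259-146502358 on the minus strand and chr11:72961069-72961168 on the plus strand. For Itpr2 the 35 bases nearest the start were left out because another annotated transcript begins upstream. Capitals mark the GC box GGGCGG on either strand, a motif of housekeeping promoters that Sp1 family factors can bind, with overlapping matches merged.
Itpr2: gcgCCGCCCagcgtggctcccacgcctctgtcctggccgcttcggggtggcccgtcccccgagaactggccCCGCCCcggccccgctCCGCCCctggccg
Atp2a3: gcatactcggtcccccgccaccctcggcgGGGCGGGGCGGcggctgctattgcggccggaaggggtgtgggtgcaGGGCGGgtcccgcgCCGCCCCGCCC

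Both stretches were rich in G and C (82.0% and 81.0%) and held 13 and 14 CpG pairs, with 3 and 5 GC boxes. Promoter windows of 250 bases were found for 6 of the 8 genes, with 7 windows in all, Atp2b1 having a pair. A GC box lay in 5 of the 7, against 32.7% of 32851 such windows in the RefSeq table. Among the 5, the Itpr3 window and the downstream Atp2b1 window belong to starts 302 and 522 bases inside the span of their genes. These windows thus lie downstream of the outermost start. TATA boxes (TATAAA) lay in 0 of the 7, against 12.4% of all. The Itpr2 window also held 2 CCAAT boxes (CCAAT, in 33.8% of all windows), the Atp2a1 window 1, and the Itpr3 window an E box (CACGTG, in 6.02% of all windows). The Atp2b4 window had 45.6% G and C and 2 CpG pairs, with none of these motifs, but the start it belongs to lies 47312 bases inside the span of the gene, so it does not show the outermost start.

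Atp2b4 encodes PMCA4, a calmodulin-regulated pump that expels calcium across the plasma membrane. Its only probe set read 461, 781 and 360 in WT mice 1, 2 and 3, and 106, 63.2 and 49.2 in CNOT3KO mice 1, 2 and 3. All 3 WT mice were above all 3 CNOT3KO mice, and the nearest pair was 360 against 106. The means were 534 ± 220 (SD, n = 3) and 72.9 ± 29.8 (SD, n = 3), and the log2 difference was -2.52 (SE 0.29), or 0.175 of WT on the offset scale. Because CNOT3KO signals were close to the dim end, the size varied with the offset, from -2.85 to -1.91 over the alternatives tried. Within WT the spread was wide, with a coefficient of variation of 41.1%, and WT mouse 2 was the highest.

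Atp2b1 encodes PMCA1, the plasma membrane pump found in nearly all cells. Its brightest probe set, 1428937_at, read 1267, 1241 and 1315 in WT and 1155, 1144 and 884 in CNOT3KO. The groups did not overlap, CNOT3KO mouse 3 was the lowest, and the log2 difference was -0.27 (SE 0.13), or -0.15 without that mouse. The other 2 probe sets of Atp2b1 had overlapping groups, with differences of -0.27 (SE 0.17) and -0.12 (SE 0.18). In both, WT mouse 3 was the highest of the 6 arrays (976 and 901). Without that mouse the differences were -0.10 and 0.05, so the direction of the latter rested on 1 array.

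Atp2a2 encodes SERCA2, the ER pump of most cell types, made in isoforms with different ends. Its brightest probe set, 1427250_at, read 5294, 5151 and 5356 in WT and 3675, 4121 and 3920 in CNOT3KO. Every WT mouse was above every CNOT3KO mouse, the spread within WT was small (coefficient of variation 1.99%), and CNOT3KO stood at 74.1% of the WT mean, with a log2 difference of -0.43 (SE 0.10). Probe set 1427251_at was also separated, with 543, 629 and 537 in WT against 406, 337 and 386 in CNOT3KO (log2 -0.57, SE 0.13). So was 1437797_at, with 418, 461 and 273 against 248, 261 and 181 (log2 -0.67, SE 0.21), where WT mouse 3 came close to the CNOT3KO mice.

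The dim 1443551_at, below the filter, lay the same way, with 43.1, 48.4 and 36.8 in WT wholly above 30.6, 28.4 and 4.88 in CNOT3KO (log2 -0.63). The other 2 probe sets of Atp2a2 had overlapping groups. The second brightest, 1416551_at, read 2035, 1926 and 1967 in WT and 1677, 1978 and 1899 in CNOT3KO, with overlapping groups and a log2 difference of -0.10 (SE 0.11). Probe set 1452363_a_at, whose suffix marks probes shared by several transcripts of a gene, read 797, 723 and 531 in WT against 654, 737 and 881 in CNOT3KO (log2 0.15, SE 0.17), in the opposite order of means, but with -0.01 without WT mouse 3 and -0.02 with array weights. The positions of the probe sets along the transcripts were not analysed here, so a lower level of all Atp2a2 transcripts and a shift between transcript ends cannot be told apart.

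Atp2a3 encodes SERCA3, known from blood, endothelial and some epithelial cells. Its brighter probe set read 489, 461 and 712 in WT and 487, 508 and 446 in CNOT3KO. The groups overlapped, with WT mouse 3 alone above the rest, and the log2 difference was -0.17 (SE 0.17). Without WT mouse 3 it was 0.01. That mouse also had the highest summed signal of the T, NK and B cell markers, at 125% of the WT mean against 82.8% and 92.3% in the other WT mice, and its B cell gene Ms4a1 read 301 against 61.9 and 170 there. It was the highest WT mouse also in the adipocyte (110%), smooth muscle (118%), macrophage (108%), platelet (119%) and mesothelial (109%) sums. In the endothelial (98.8%), mast cell (89.3%), epididymis (89.9%) and nerve (95.35%) sums it was the lowest WT mouse. The part of any of these cells in the value of Atp2a3 was not tested. The other Atp2a3 probe set lay below the filter, with 93.6 in CNOT3KO mouse 1 and 10.1 and 11.4 in the other CNOT3KO mice.

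Atp2a1 encodes SERCA1, the pump of fast skeletal muscle fibres. It read 16.3, 50.1 and 63.4 in WT and 33.1, 7.57 and 38.3 in CNOT3KO, so both group means, 43.3 and 26.3, lay below the filter and the groups overlapped. Of 12 skeletal muscle markers 6 also lay below the filter, namely Myh1, Myh2, Myh4, Tnnt3, Tnni2 and Tnnc2, and of the 6 tested 0 passed by limma in either direction, with 1 at an unadjusted p under 0.05.

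Itpr2 encodes the IP3 receptor subtype with the highest affinity for IP3. Its brightest probe set, 1427287_s_at, read 564, 493 and 573 in WT and 365, 337 and 314 in CNOT3KO, a log2 difference of -0.65 (SE 0.13). The groups were well apart, with the lowest WT mouse at 493 and the highest CNOT3KO mouse at 365. The largest gap was in 1424834_s_at, with 306, 334 and 295 in WT against 112, 139 and 147 in CNOT3KO (42.5% of the WT mean; log2 -1.11, SE 0.15). The suffix _s_at marks probes that can also match transcripts of other genes. A probe set without it, 1424833_at, read 191, 152 and 170 in WT and 113, 121 and 58.7 in CNOT3KO (log2 -0.73, SE 0.23), again with every CNOT3KO mouse lower. Without CNOT3KO mouse 3 its difference was -0.47.

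The dimmer Itpr2 probe sets did not follow. Probe sets 1427693_at and 1421678_at had overlapping groups, with log2 differences of -0.14 (SE 0.22) and -0.19 (SE 0.24). In 1444418_at the order was turned, with 58.9, 60.03 and 30.3 in WT below 103, 71.0 and 92.7 in CNOT3KO (log2 0.64, SE 0.24). The mean signals of these 3 probe sets were between 69.3 and 81.2, just above the filter, where MAS5 signals are noisy. With all 6 probe sets averaged, the log2 difference of Itpr2 was -0.36.

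Itpr3 encodes the IP3 receptor subtype typical of secretory and epithelial cells. Its probe set read 160, 136 and 171 in WT and 121, 125 and 81.2 in CNOT3KO. Every CNOT3KO mouse was below every WT mouse, but the nearest pair was 136 against 125, and the log2 difference was -0.45 (SE 0.19). Without CNOT3KO mouse 3 it was -0.28.

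**Figure D2:**
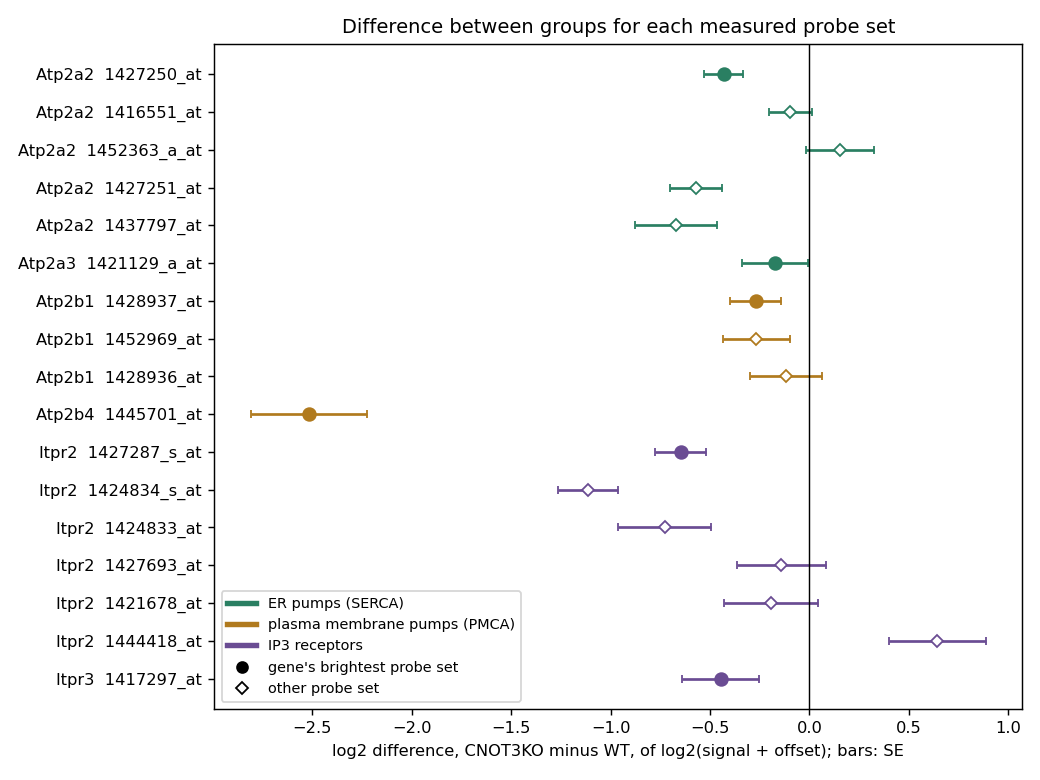
Difference between CNOT3KO and WT (horizontal axis, log2 units of signal plus offset, with SE as bars) for the 17 calcium pump and IP3 receptor probe sets above the filter. Colour gives the family, filled circles the brightest probe set of each gene and open diamonds the others. Atp2b4 lies alone at -2.52, and the other 16 lie between -1.11 and 0.64, with Atp2a2 and Itpr2 spread over both sides of 0.

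By the brightest probe set of each gene, the order from the lowest difference was Atp2b4 (-2.52), Itpr2 (-0.65), Itpr3 (-0.45), Atp2a2 (-0.43), Atp2b1 (-0.27) and Atp2a3 (-0.17). From Itpr2 on, each neighbouring pair differed by less than the sum of their SEs, whereas Atp2b4 lay further below Itpr2 than that sum. To find genes with a like pattern, log2 values were centred on each gene's mean over the 6 arrays and the root mean square distance was taken. Closest to Atp2b4 among 12769 genes were St6galnac5, a sialyltransferase (distance 0.34), Pcsk6, a proprotein convertase (0.36), and Pon1, a paraoxonase (0.38), against a median distance of 1.34 over all genes. St6galnac5 read 345, 676 and 598 in WT and 110, 66.1 and 58.2 in CNOT3KO, with the groups wholly apart as for Atp2b4. Closest to Atp2a3, the gene with the smallest difference, were Fgd2, Phc1 and Gm16136 at 0.09 each, all highest in WT mouse 3, against a median of 0.34. Because these genes were picked for likeness over the same 6 arrays, such shared features follow from the choice. The distances between the other members were between 0.12 (Atp2b1 and Itpr3) and 0.29 (Atp2a3 and Itpr2), while Atp2b4 was at least 1.03 from each.

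Several cell types of the pad carry these genes, and the arrays hold RNA of the whole tissue, so fewer cells of a type and less RNA per cell cannot be told apart. The marker lists were chosen with earlier results of these data known. Of all tested genes 23.2% were called higher and 16.9% lower, and the counts below stand beside these shares. Adipocyte markers were clearly present, with a summed signal of 157540 to 198940 in WT and 138320 to 166940 in CNOT3KO, and 3 of 10 were lower by limma. All 12 endothelial markers were lower (summed signal 23368 to 24001 in WT and 8006 to 9291 in CNOT3KO), which left 33.8% to 39.3% of the WT mean. Of 8 tested smooth muscle and pericyte markers 5 were lower and 1 higher (17403 to 25136 and 13736 to 17219), with Cnn1 and Lmod1 below the filter. Of 6 mesothelial markers 4 were lower (3792 to 4898 and 2180 to 3387). Of 10 macrophage markers 8 were higher and 1 was lower (14427 to 16925 and 28899 to 43012). Platelet markers were higher in 2 of 4, with the defining Gp9 below the filter (3283 to 5312 and 6401 to 8719). Mast cell markers were higher in 2 of 4 and lower in 1 (544 to 658 and 634 to 1368), lymphocyte markers higher in 1 and lower in 1 of 6 (949.6 to 1432 and 909 to 1269), and nerve markers higher in 1 of 4 (10049 to 11282 and 12122 to 13722). The nerve sum was mostly Pmp22 (means 9612 in WT and 11694 in CNOT3KO), which did not pass, while the called Sox10 was dim (22.7 and 111). Most of the platelet sum was Pf4 (4000 and 7192). The 3 epididymis markers matched, Lcn8, Lcn9 and Adam7, were all below the filter (78.2 to 98.5 and 27.9 to 68.6), and the skeletal muscle sum was 918 to 1502 and 819 to 1020. The CNOT3KO signal of Atp2b4 was a smaller share of WT (13.7%) than that of the endothelial sum, and the shares of the brightest Atp2a2 and Itpr2 probe sets (74.1% and 62.4%) were larger. The part of these cell types in the lower signals was not tested.

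**Figure D3:**
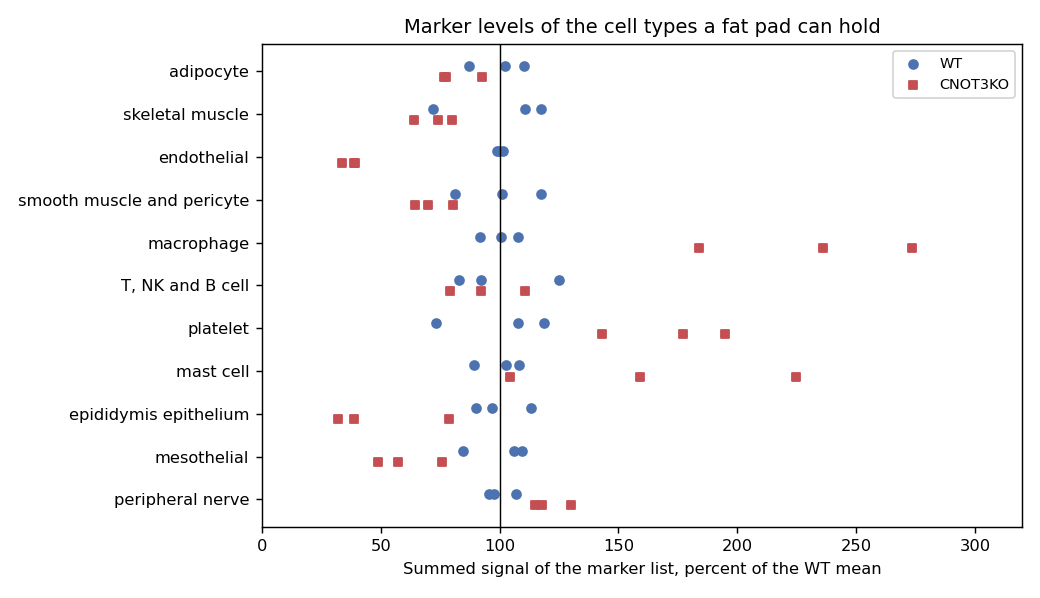
Summed signal of each fixed marker list (rows) in each mouse, as a percent of the WT mean (horizontal axis, linear from 0). Circles are WT and squares CNOT3KO mice. The endothelial sum lies between 33.8% and 39.3% in CNOT3KO, and the macrophage sum between 184% and 273%.

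Beyond the listed pumps and receptors, 120 other calcium handling genes in 7 lists were followed, each by its brightest probe set. Probe sets were found for 112 and 98 were bright enough to be tested. Of these 19 rose and 19 fell (limma, adjusted p under 0.05 over 12769 genes), 19.4% in each direction, against backgrounds of 23.2% of all tested genes called higher and 16.9% called lower. The median log2 difference of the 98 was 0.01, against 0.02 over all tested genes. With the arrays centred on the median of tested genes, which moved all differences by -0.10 in the median, the split turned to 11 higher and 25 lower, and with centring on ribosomal protein genes to 12 and 20. With array weights both numbers were 24. Without WT mouse 2 the number that rose was 9, without CNOT3KO mouse 1 it was 11, and without CNOT3KO mouse 2 it was 12.

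**Figure D4:**
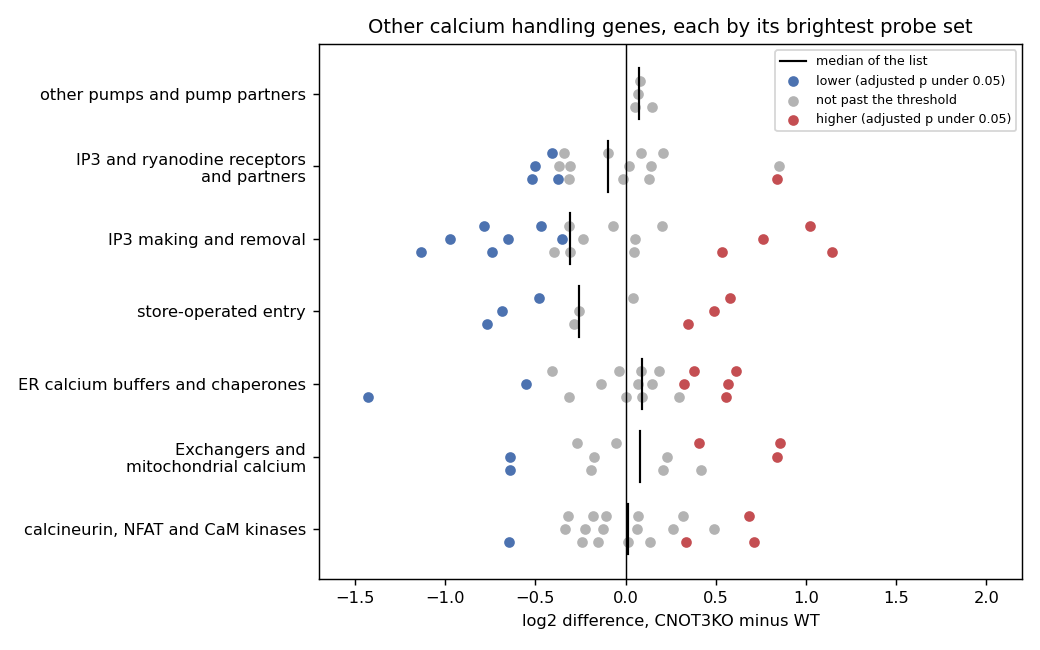
Difference between CNOT3KO and WT (horizontal axis, log2 units) of the tested calcium handling genes in each of 7 lists (rows), with points offset vertically for legibility. Red points rose and blue points fell at an adjusted p under 0.05, grey points did not pass, and black lines are list medians. Every list but the first holds calls in both directions, and IP3 making and removal spans -1.13 to 1.15.

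The other pumps and pump partners held 0 calls among 4 tested genes by limma, and 0 at an unadjusted p under 0.05. Atp2c1, the Golgi calcium and manganese pump, read 1138 ± 39.1 in WT and 1184 ± 115 in CNOT3KO (SD, n = 3 each). The neuronal pump Atp2b3 read 62.1 ± 21.6 and 65.8 ± 14.0. The PMCA subunits Bsg and Nptn had log2 differences of 0.15 (SE 0.11) and 0.07 (SE 0.11), the latter -0.08 with all probe sets averaged, where Atp2c1 had -0.22. Centring on the median also turned Atp2c1 and Nptn, to -0.05 and -0.03. Atp2b2, Atp2c2 and the SERCA inhibitors Pln and Sln lay below the filter, with group means of 56.3 or less.

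In the making and removal of IP3, 4 of 19 tested genes rose and 7 fell (median -0.31). The G protein subunits that switch on phospholipase C-beta were both lower: Gnaq went down from 3780 ± 331 to 1913 ± 101 (SD over the 3 mice; limma log2 difference -0.97, adjusted p = 0.000131), and Gna11 from 3513 ± 213 to 2227 ± 70.1 (log2 -0.65). Among the phospholipases Plcb1 rose from 1236 ± 113 to 2771 ± 394 (log2 1.15, SE 0.13, limma adjusted p = 0.000150) and Plcg2 by 0.54, while Plcb4, Plcd1 and Plce1 fell by 0.35, 0.47 and 0.74 on the log2 scale. Of the enzymes that break down or convert inositol phosphates, Inpp1 fell from 375 ± 89.0 to 159 ± 41.3 (log2 -1.13, but -0.67 with all probe sets averaged) and the IP3 phosphatase Inpp5a fell by 0.79, whereas Itpk1 rose by 1.02 and Inpp5b by 0.76. The genes Gnaq, Gna11, Inpp5a, Plcb4, Plcd1 and Plce1 were named after their values were seen, as the remaining calls of this list. Gna14, which was not tested, was also named after its values were seen. Plcg2 lost its call with WT mouse 1 or 2 or CNOT3KO mouse 1 or 2 left out (log2 0.42 to 0.54), with centring on the median (0.44) and with no filter. Plcb4 lost it without WT mouse 1 or CNOT3KO mouse 1 (-0.32 to -0.30) and was at -0.60 with all probe sets averaged, Plcd1 without WT mouse 2 (-0.41), and Plce1, whose groups overlapped, with WT mouse 2 or 3 or CNOT3KO mouse 1 or 3 left out (-0.73 to -0.58).

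Partners of the IP3 and ryanodine receptors held 1 higher and 4 lower of 17 tested genes, and 12 did not pass. Fkbp1b, a ryanodine receptor subunit, rose from 108 ± 25.8 to 212 ± 43.9 (log2 0.84, SE 0.20, limma adjusted p = 0.00945), and its relative Fkbp1a fell from 13327 ± 1046 to 10060 ± 1189 (log2 -0.41). Ahcyl2, a relative of the IP3 receptor inhibitor IRBIT, fell by 0.52, but had -0.09 with its probe sets averaged, where it lost its call. Erlin1, which takes part in degrading active IP3 receptors, fell by 0.37, and Bok, a BCL2 family protein that binds them, by 0.50. The ryanodine receptors themselves were dim, with Ryr1 at 45.4 ± 37.4 and 89.6 ± 19.6, Ryr3 at 67.6 ± 14.0 and 50.6 ± 24.3 and Ryr2 below the filter. Erlin1 lost its call without WT mouse 3 or CNOT3KO mouse 1 (-0.37 to -0.31), Fkbp1a with WT mouse 1 or 2 or CNOT3KO mouse 1 or 3 left out (-0.39 to -0.34), and Bok without each of the WT mice in turn or CNOT3KO mouse 2 or 3 (-0.53 to -0.37) and with array weights (-0.29).

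Store-operated entry refills the ER from outside the cell, and of its 9 tested genes 3 rose, 3 fell and 3 did not pass. The store sensors Stim1 and Stim2 did not pass, with log2 differences of -0.26 (SE 0.17) and -0.29 (SE 0.14), nor did the channel Orai1 (0.04, SE 0.14). The channels Orai3 and Orai2 were higher by 0.49 and 0.58, and Saraf, which shuts the pathway off, by 0.35. Stimate, a STIM activator of the ER, fell from 598 ± 36.9 to 342 ± 21.5 (log2 -0.77, SE 0.12, limma adjusted p = 0.000886), the regulator Cracr2b fell by 0.68 and the channel Trpc1 by 0.48. Orai3 lost its call without WT mouse 2 or CNOT3KO mouse 1 (0.45 to 0.47), Orai2 without each of the WT mice in turn or CNOT3KO mouse 1 or 2 (0.50 to 0.62), Saraf with WT mouse 1 or 2 or CNOT3KO mouse 1 or 3 left out (0.25 to 0.37), and Trpc1 without WT mouse 1 or 3 or each of the CNOT3KO mice in turn (-0.54 to -0.41). Orai2 and Saraf also lost it under both centrings (0.48 to 0.54 and 0.25 to 0.31 in that order), Trpc1 with quantile normalization (-0.43) or array weights (-0.32), and Orai2, Saraf and Trpc1 with no filter. Saraf lost it without the variance trend too.

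Calcium-binding proteins of the ER held 5 higher and 2 lower of 18 tested genes. Hspa5, the main ER chaperone, rose from 9851 ± 1355 to 14972 ± 923 (log2 0.61, SE 0.12, limma adjusted p = 0.00345), Rcn3 by 0.57, Pdia6 by 0.56, Calu by 0.38 and the calcium buffer calreticulin, Calr, by 0.32. Asph, whose locus also encodes the ER calcium regulators junctin and junctate, fell from 3569 ± 506 to 1327 ± 317 (log2 -1.43, SE 0.17), or by 0.67 when probe sets that can match other genes were avoided. Sdf4, a Golgi calcium-binding protein, fell by 0.55. Calr lost its call without WT mouse 1 or 2 or each of the CNOT3KO mice in turn (0.27 to 0.36), under both centrings (0.23 and 0.28) and without the variance trend, Rcn3 without WT mouse 2 or CNOT3KO mouse 2 (0.41 to 0.46), and Calu without WT mouse 2 (0.34), with median centring, or with all probe sets averaged (-0.010).

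Among sodium-calcium exchangers and genes of mitochondrial calcium 3 of 12 rose and 2 fell. Micu2, a gatekeeper of the mitochondrial uniporter, rose from 1598 ± 120 to 2885 ± 276 (log2 0.84, SE 0.11, limma adjusted p = 0.000373), Letm1, an ion exchanger of the inner membrane, by 0.86, and Slc8b1, the mitochondrial sodium-calcium exchanger, by 0.41. Mcur1, a uniporter regulator, fell from 9010 ± 360 to 5761 ± 134 (log2 -0.64) and the plasma membrane exchanger Slc24a3 by 0.64. The pore gene Mcu had 0.42 (SE 0.18) and did not pass. Slc8a1, Slc8a2 and Slc8a3, further plasma membrane exchangers that move calcium out of the cell, were below the filter. Slc8b1 lost its call without WT mouse 2 or CNOT3KO mouse 1 (0.37 in both) and under both centrings (0.31 and 0.37).

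Of the calcium-responsive phosphatase, its NFAT targets and the calmodulin kinases, 3 of 19 rose, 1 fell and 15 did not pass. Ppp3cb, a catalytic subunit of calcineurin, fell from 2883 ± 361 to 1843 ± 329 (log2 -0.65, SE 0.15, limma adjusted p = 0.00699), while Rcan1, a calcineurin regulator, was higher by 0.33, Camk1d by 0.71 with overlapping groups, and Camk4 by 0.69 from a dim level (55.1 ± 12.5 to 103 ± 23.6). Rcan1 lost its call without WT mouse 2 or 3 or each of the CNOT3KO mice in turn (0.27 to 0.35), Camk1d with WT mouse 2 or 3 or CNOT3KO mouse 1 or 2 left out (0.51 to 0.68), and Camk4 without each of the WT mice in turn or CNOT3KO mouse 2 or 3 (0.54 to 0.76). Rcan1 and Camk4 also lost it under both centrings (0.24 to 0.29 and 0.59 to 0.65), Camk1d with centring on ribosomal protein genes (0.68) and with its probe sets averaged (0.46), and Rcan1 with its probe sets averaged (0.31) and without the variance trend. Camk1d and Camk4 lost it with no filter, and Camk4 with array weights (0.42).

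As a check of the labels, the targeted gene Cnot3 read 305, 293 and 305 in WT and 194, 229 and 179 in CNOT3KO, with -0.54 (SE 0.14) on the log2 scale and an adjusted p of 0.0131 by limma. Whether this probe set lies inside the deletion is not known here, and other cells of the pad keep the gene. The median signal per array was between 82.1 and 92.9, and 3 arrays per group limit the precision of every value.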

How the data were processed

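The authors deposited linear signal intensities per probe set. The submitters' processing notes name MAS5, and the arrays were made from 500 ng of total RNA per the labels' protocols. Its version and settings were not given. Groups and mouse numbers came from the sample titles. Of 45037 probe sets, 34945 carried 1 gene symbol in the platform annotation, 932 several and 9160 none. For genes outside the listed set, each of 18193 genes was represented by its probe set of highest mean signal, and genes dimmer than the 40th percentile of all probe sets were set aside, leaving 12769 for the test. The test was limma 3.58.1 (R 4.3.3), lmFit and eBayes with trend, two-sided, on log2(signal + 22.5), with Benjamini-Hochberg adjustment over all tested genes, and the same fit over 22861 single probe sets gave the SEs of the listed genes. It was also run on simulated data with independent normal noise for each gene. Such data hold no shared litter or cell composition effects, so that run cannot vouch for the calls made here. Python 3.11.15, pandas 2.3.3, numpy 2.4.6 and matplotlib 3.10.9 were used for tables and plots.

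The listed genes, the 7 calcium lists and the 11 marker lists were chosen with earlier results of these data known. Named were all listed genes, Cnot3, the other calcium pump genes with Pln and Sln, up to 3 called genes with the largest change in each list, all calls of a direction with 5 or fewer, and the 3 genes closest in pattern to the listed genes of highest and lowest difference. Alternatives covered the offset, filter, normalization, scaling, probe set choice, variance model, the weighting of arrays, a block on mouse number, and each array left out. Nothing in the labels says that mouse numbers pair the groups. Groups of 3 were too small for an outlier test.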

Additional observations from a re-analysis of the deposited data

How the results depend on the processing

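Of 296 values of the listed genes under the alternatives, 290 moved by less than the SD between mice and 6 moved by more. The 6 were Atp2b4 (-1.91) and Itpr2 1424834_s_at (-0.86) with a larger offset (the median of the data), the Itpr2 probe sets 1427287_s_at (-0.53) and 1424834_s_at (-1.28) with array weights, and Atp2a2 (-0.32) and Itpr2 (-0.36) with their probe sets averaged. Many of the 290 could not have moved by more. Changes of filter or variance model and the block on mouse number leave the difference itself unchanged. Leaving out an array shifts it by less than an SD that includes the same array. The count of 290 is therefore no measure of stability. Of the small differences, Atp2a3, Atp2b1 1428936_at, Atp2a2 1452363_a_at and Itpr2 1427693_at changed sign under at least 1 alternative, to 0.01, 0.05, -0.02 and 0.05 at most. Of the 38 calcium handling genes called, 19 kept their call under every alternative that could test them and 19 lost it under at least 1. The number that rose (19) was 11 with centring on the median, 12 with centring on ribosomal protein genes, 9 to 17 with an array left out, and 24 with array weights, a range of 9 to 24 in all. The number that fell (19) was between 14 and 25 in all. Over all genes the number called higher (2959) was 2318, 2408, 2199 to 2676 and 3683 under the settings just named, in that order. The number of all genes called lower (2156) was 2800 with centring on the median and 2932 with array weights. Calu turned to -0.010 with its probe sets averaged. Over all genes, 2156 of 12769 (16.9%) were lower, and 3938 of 22861 probe sets (17.2%) when each was tested singly. The larger count thus went with a larger number of features at a like share, and other causes were not tested. With the mouse number as a replicate block, 16 calcium genes rose and 19 fell, while the number of all genes called higher was 2910 and of all genes called lower 2182. Plcg2, Orai2, Rcan1 and Camk4 lost their calls under the block. Same-numbered mice had correlations of 0.07, 0.11 and 0.04 between their deviations from the group means, and each correlated best with its own number, which is a hint from the data and not the design. Signals near the filter limit what Atp2a1, Itpr3 and the dimmer Itpr2 probe sets can show, and Itpr3 and the plasma membrane pump Atp2b4 each rest on 1 probe set.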
